A study of Mus musculus with 64 samples.

Results

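Clone T is a clonal tumor cell line, and its response to fibroblasts was taken as the difference between 4 libraries of clone T cells after coculture with fibroblasts and 4 libraries of clone T cells grown in mono-culture. The 8 libraries were found by their labels, which name the line and the culture, and they were 8 of 64 in the whole series. Clone T was 1 of 7 clones (E, H, K, M, N, T and V) derived from a single polyclonal line, itself grown from a pancreatic tumor of a KPC mouse, in which mutant tumor driver alleles are switched on by a Cre recombinase driven by the Pdx1 promoter. KPC1, a further line from this model, was the eighth. All lines carried the labels Mus musculus and strain C57BL/6 mixed. Coculture was direct and lasted 48 h, and the GFP-positive tumor cells were then recovered by fluorescence-activated cell sorting (FACS). The labels do not say whether mono-cultures went through the sorter, so sorting and contact with fibroblasts cannot be told apart. Clone T is 1 clone, and what is given here is its own response and how that response compared with the responses of the other 7 lines.

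Pancreatic ductal tumors are rich in fibroblasts, which lay down collagen and other matrix and supply growth factors, cytokines and metabolites to the tumor cells beside them. Tumor cells short of amino acids activate GCN2, a kinase that phosphorylates eIF2 alpha, and the transcription factor ATF4 is then translated and raises genes for amino acid synthesis, amino acid uptake and tRNA charging. This program is the integrated stress response. Other programs that are known to move in tumor cells next to stroma include sterol synthesis under SREBP2, oxidant defense under Nrf2, the interferon response, and the loss of epithelial genes.

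Clone T libraries held 15755787 to 18781361 counts in mono-culture and 13716836 to 16324246 in coculture, against 11178721 to 21333683 in the other lines. Of 39017 genes in the table, 14134 passed the filter on low counts. Correlations of log CPM, counts scaled to a common library total, were 0.974 to 0.988 between clone T libraries of the same culture and 0.901 to 0.931 between cultures. Levels are means of CPM ± SD over 4 libraries, and log2 responses and differences are given ± SE. Mitochondrially encoded genes took 3.35 to 4.22% of counts in mono-culture and 2.09 to 3.18% in coculture. A sample number in the labels' descriptions runs from 1 to 43 in one set of libraries and again from 1 to 21 in the rest. These sets are called sheet A and sheet B here. That they are batches is inferred from the numbers, and the labels do not say what they stand for. Each held 2 mono-culture and 2 coculture libraries of clone T. The label of a tumor cell was compared with 22 ductal and epithelial genes. Of these, 14 had a mean over 1 CPM in mono-culture and 13 in coculture. The keratin Krt8 was at 1094 CPM in mono-culture and 593 CPM in coculture, and Krt19 was at 925 and 324 CPM. Other members were at or near 0, with Epcam at 0.469 CPM or less and Dsp at 0 in every clone T library. Markers of fibroblasts were present in the sorted cells. The summed level of 20 fibroblast markers was 129.5 ± 16.1 CPM in mono-culture (SD, n = 4, range 111.6 to 150.4) and 1002 ± 285 CPM in coculture (range 711.1 to 1293). The group means of the other lines in coculture ran from 693.4 CPM in clone E to 1508 CPM in clone K. Of the 20, 6 were at 0 in all 4 clone T mono-culture libraries, among them Dcn, Lum, Thy1 and Postn, markers that define fibroblasts. None of the 20 was at 0 in all 4 coculture libraries. Lum, Dpt, Mfap4 and Mfap5 were still at 0 in part of these, and at 0.509 CPM or less in the others. The list did not move as one. Pdgfra, Pdgfrb, Prrx1, Fbln1 and Twist2 were already at 6.27 CPM or more in every mono-culture library. Twist2 fell (log2 response -0.71), and Fbln1 and Islr overlapped between cultures. Immune markers summed to 18.6 CPM in mono-culture and 40.2 CPM in coculture, nearly all of it Cd68, and the pan-leukocyte gene Ptprc was at 0 in mono-culture and at most 0.22 CPM in coculture. The part of carried-over fibroblast RNA in any rise was not tested, and in bulk libraries more cells of a type and more RNA per cell cannot be told apart.

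The clone T response was broad. In edgeR's quasi-likelihood test with Benjamini-Hochberg adjustment, at adjusted p under 0.1, 4455 genes rose (31.5% of those tested) and 4335 fell (30.7%). The other lines had 2894 to 8688 genes called in all, and the 8790 of clone T was the highest of the 8 lines. Clone T also had the widest spread of log2 fold changes over all genes, with an SD of 1.37 against 0.95 to 1.28 in the other lines, and the most genes called with a change over 1 on the log2 scale (3100 against 1035 to 2788). Within sheet A alone 8042 genes were called, and within sheet B alone 5047. Most of the response was shared with other lines. Of the 8790 genes, 362 (4.12%) were called the same way in all 7 other lines and 463 (5.27%) in none of them. Over 14134 genes, which are no replicates of each other, the clone T response correlated with the mean response of the other 7 lines at Pearson's r = 0.86 and Spearman's rho = 0.83. Clone E (r = 0.83) and clone N (r = 0.80) lay nearest, and clone K (r = 0.60) lay farthest. The replicates are separate libraries, but no label says that they came from separate cultures, so every p-value here measures the spread between these libraries.

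**Figure D1:**
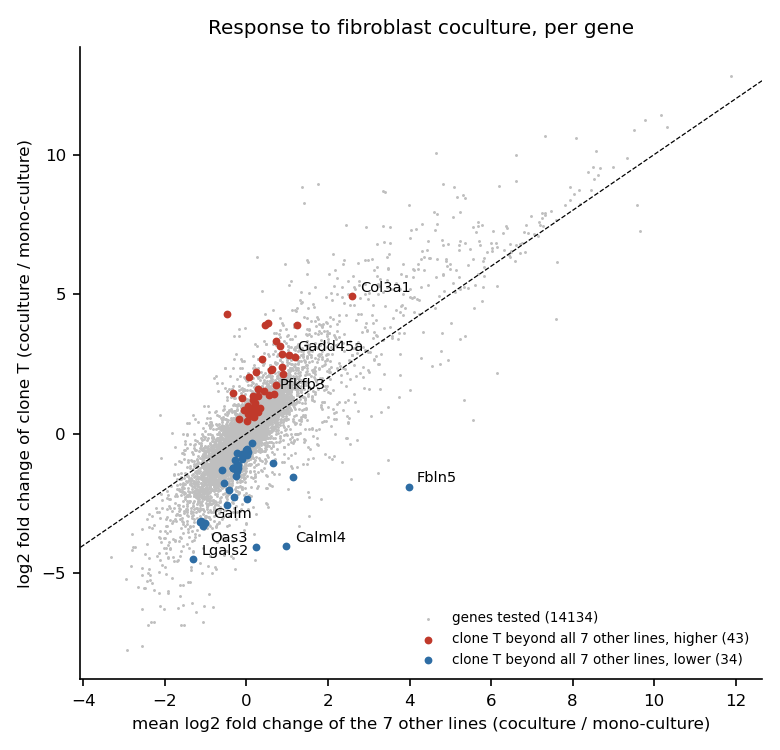
Log2 response to coculture (coculture minus mono-culture) of every gene tested, with the mean of the 7 other lines on the x axis and clone T on the y axis, and a dashed line where both are equal. Coloured points are the 43 genes that rose and the 34 that fell in clone T beyond all 7 other lines, and they lie away from the dashed line above and below it.

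Matrix and fibroblast genes had the largest rises among the named genes. Postn, which encodes the matrix protein periostin, was at 0 in all 4 mono-culture libraries and at 77.5, 29.4, 51.5 and 74.0 CPM in coculture, at least 1323-fold higher when the mono-culture group is set to a floor of 3 counts in all. On the same floor Nid2, a basement membrane nidogen, was at least 440-fold higher, Thy1, a surface antigen of fibroblasts, at least 367-fold, Loxl1, which crosslinks elastin, at least 296-fold, and Acta2, smooth muscle actin, at least 282-fold. Col5a2, a chain of type V collagen, rose from 0.0293 to 102 CPM. Its mono-culture level rested on 2 counts, and the ratio of 3453 has an exact counting interval of 955.6 to 28520. All 7 other lines were called higher for each of these genes. Their coculture levels were 38.1 to 73.5 CPM for Postn and 5.98 to 15.7 CPM for Thy1, against 58.1 and 16.1 CPM in clone T. Of the 17 fibroblast markers tested, 13 rose and 1 fell, with a median log2 change of 6.00 against 1.25 to 4.84 in the other lines and 0.00 over all genes. Of 16 collagens, 15 rose and none fell, with a median of 3.41 against 0.58 to 2.85. Over all genes tested, 31.5% rose and 30.7% fell.

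The named genes that fell most were expressed by clone T in mono-culture and nearly lost in coculture. Gsta1, a glutathione S-transferase, fell from 41.7 ± 7.28 to 0.903 ± 0.882 CPM. Sptssb, a subunit of serine palmitoyltransferase, fell from 27.7 ± 2.26 to 0.353 ± 0.274 CPM, C4bp, a complement regulator, from 22.96 ± 13.55 to 0.4997 ± 0.551 CPM, and Rasl11a, a Ras-like GTPase gene, from 118 ± 42.04 to 3.02 ± 3.80 CPM. Ttc36 and Cst9 fell from 10.4 and 5.29 CPM to 0.0806 and 0.0708 CPM, and Mt2, a metallothionein, from 11.5 to 0.285 CPM. No coculture library reached the lowest mono-culture library for any of these 7 genes. Pdx1, the transcription factor of pancreatic development whose promoter drives Cre in this model, was at 191, 196, 204 and 209.9 CPM in mono-culture and at 38.97, 22.1, 20.8 and 35.5 CPM in coculture. Its response was -2.77 ± 0.30 on the log2 scale (SE; adjusted p = 7.73e-11), a 6.83-fold fall, against a mean of -1.03 in the other lines, and the difference of -1.74 ± 0.31 was called (adjusted p = 6.94e-05) and was called in each sheet (-2.03 in A, -1.66 in B).

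Genes of the integrated stress response rose together in clone T. Of 34 tested, 30 rose and 1 fell, where 31.5% and 30.7% of all genes did, with a median log2 change of 1.17, within the 0.23 to 1.74 of the other lines. Promoters of 3 of them are shown here, 250 bases before to 50 bases after the start in RefSeq on GRCm38.p6, because these genes rose in clone T and because each holds the letters TGATGNAA, a form of the composite element that ATF4 and C/EBP factors are known to bind. Capitals mark the match on either strand.
Asns, chr6:7693160-7693459, minus strand: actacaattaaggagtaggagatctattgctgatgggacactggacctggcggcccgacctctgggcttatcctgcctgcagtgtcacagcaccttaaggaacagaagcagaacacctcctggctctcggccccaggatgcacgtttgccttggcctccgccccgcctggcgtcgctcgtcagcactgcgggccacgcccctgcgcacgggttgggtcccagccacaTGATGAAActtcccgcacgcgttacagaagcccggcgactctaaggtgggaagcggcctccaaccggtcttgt
Chac1, chr2:119350992-119351291, plus strand: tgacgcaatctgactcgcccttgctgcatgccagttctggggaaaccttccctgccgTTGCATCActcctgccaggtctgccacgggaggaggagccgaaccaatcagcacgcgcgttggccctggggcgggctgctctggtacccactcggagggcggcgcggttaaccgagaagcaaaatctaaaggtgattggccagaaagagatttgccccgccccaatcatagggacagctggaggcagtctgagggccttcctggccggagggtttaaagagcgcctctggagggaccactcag
Trib3, chr2:152344011-152344310, minus strand: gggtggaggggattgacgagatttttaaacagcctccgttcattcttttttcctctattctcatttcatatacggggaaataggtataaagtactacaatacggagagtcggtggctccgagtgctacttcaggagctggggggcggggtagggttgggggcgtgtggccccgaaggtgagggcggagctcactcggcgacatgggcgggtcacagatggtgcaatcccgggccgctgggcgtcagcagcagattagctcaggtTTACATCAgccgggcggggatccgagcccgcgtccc
The match begins at base 228 in Asns, base 58 in Chac1 and base 265 in Trib3. This motif was in 3.97% of 32851 promoters of 300 bases, and in 10 of the 31 genes of the list that had a promoter in the table. Asns, the enzyme that makes asparagine, was at 187, 172, 213 and 67.3 CPM in mono-culture and at 411, 691, 556 and 395 CPM in coculture. The groups did not overlap, and mono-culture replicate 4 was the low library. The response of Asns was 1.68 ± 0.28 on the log2 scale, a 3.21-fold rise (adjusted p = 9.01e-07), and its difference from the mean of the other lines, 0.43 ± 0.29, was not called (adjusted p = 0.306). Chac1, which degrades glutathione, rose from 23.7 ± 9.85 to 88.4 ± 20.02 CPM, and Trib3, a pseudokinase that acts on this pathway, from 74.2 ± 33.2 to 251 ± 98.2 CPM; these 2 were chosen for their promoters after their values were seen. Psph, the last enzyme of serine synthesis, rose from 59.6 to 141 CPM, Shmt2, the mitochondrial serine hydroxymethyltransferase, from 233 to 573 CPM, and Atf4 itself from 504 to 972 CPM. Eif2ak4, which encodes GCN2, was 1.22-fold higher, with overlapping groups (adjusted p = 0.0164). This small rise was not called in either sheet alone or without mono-culture replicate 3, where it was 0.20 on the log2 scale. Gdf15, a secreted stress cytokine, rose from 1.52 ± 0.470 to 13.8 ± 6.94 CPM.

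Against the mean of the other lines, 8 of the 34 stress response genes were higher in clone T and 2 lower, where 12.8% and 14.2% of all genes were. Nupr1, a stress-induced chromatin protein, rose by 1.84 ± 0.25 on the log2 scale, from 47.1 ± 4.56 to 168 ± 58.2 CPM, 0.92 ± 0.26 more than the mean of the others (adjusted p = 0.00923, not called in sheet B at 0.56). Ddit4, an inhibitor of mTORC1, rose by 0.97 ± 0.16, 0.74 ± 0.17 more than the others (adjusted p = 0.00157, not called in sheet A at 0.50). Atf5, a transcription factor usually counted as an ATF4 target, was the member that fell, from 80.5 ± 24.97 to 46.1 ± 8.63 CPM, 0.81 ± 0.22 below the others on the log2 scale (adjusted p = 0.0061), though neither its fall nor its difference was called in sheet A. Cebpb was the other gene below the mean (difference -0.49 ± 0.19, adjusted p = 0.0567), a call that was lost in sheet A and without any 1 of mono-culture replicates 2 and 3 and coculture replicates 1, 3 and 4. The excess over the other lines differed between sheets. The list's median difference was 0.67 within sheet A and 0.07 within sheet B, where the other lines in the fit also differ, and it was 0.16 without mono-culture replicate 4 against 0.35 with all libraries. Of the responses, the median was 1.57 within sheet A and 0.84 within sheet B.

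**Figure D2:**
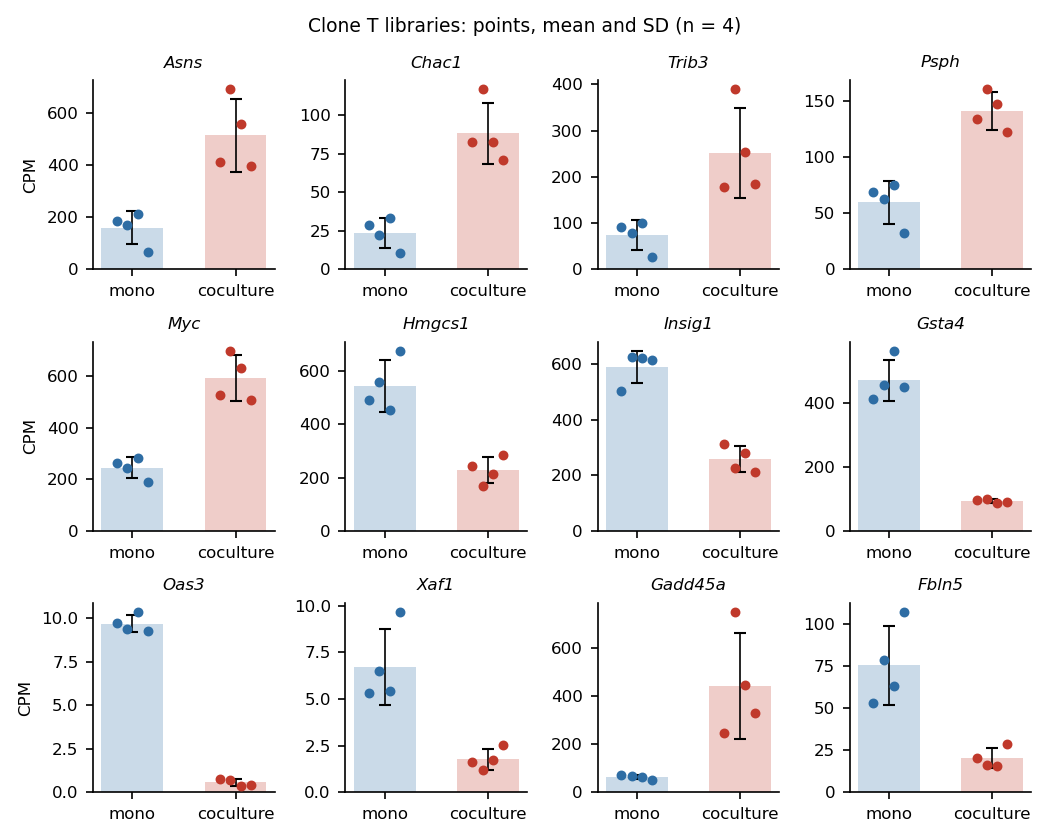
CPM of 12 genes in the 8 libraries of clone T, mono-culture on the left and coculture on the right of each panel, with bars at the mean, error bars of 1 SD (n = 4 each) and a point for each library. Asns sits at 395 to 691 CPM in the 4 coculture libraries, all above the mono-culture libraries, while Oas3 and Gsta4 lie below their mono-culture libraries in every coculture library.

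Growth genes rose as well. Among all genes tested, 31.5% rose and 30.7% fell, and 12.8% lay above and 14.2% below the mean of the other lines. Myc, the transcription factor of growth programs, was at 266, 243, 282 and 189 CPM in mono-culture and at 529, 701, 633 and 509 CPM in coculture, a response of 1.28 ± 0.18 on the log2 scale (adjusted p = 3.61e-08). The response of Myc lay 0.50 ± 0.19 above the mean of the other lines (adjusted p = 0.0537), and that call was lost in either sheet alone and without mono-culture replicate 4 or coculture replicates 2 or 3. Of 25 ribosome biogenesis and Myc target genes, 24 rose and none fell (median 0.84, other lines 0.25 to 1.04), and 12 lay above the mean of the other lines. Nolc1, a nucleolar phosphoprotein, rose from 106 ± 17.4 to 291 ± 55.6 CPM and Nop2, an rRNA methyltransferase, from 81.9 ± 16.7 to 196 ± 38.1 CPM, 0.59 ± 0.16 and 0.52 ± 0.15 more than the others on the log2 scale (adjusted p = 0.00656 and 0.011). Both differences were under their threshold within sheet B (0.32 and 0.21), and the list's median difference was 0.63 in sheet A and 0.14 in sheet B. Of 24 genes of DNA replication and S phase, 21 rose and none fell (median 0.83), and 7 lay above the others. Mcm7, a subunit of the replicative helicase, rose from 126 ± 18.9 to 269 ± 18.1 CPM and Cdt1, which loads that helicase, from 24.02 ± 4.34 to 79.9 ± 17.1 CPM. Of 22 mitosis genes, 18 rose and none fell (median 0.87, other lines 0.42 to 2.05), and Tpx2, a spindle assembly factor, was the 1 gene above the mean of the others, a call lost in each sheet alone and without mono-culture replicate 3 or 4.

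Sterol synthesis fell. Of 24 cholesterol synthesis genes, 21 fell and none rose, where 30.7% and 31.5% of all genes did. Their median log2 change was -0.82, against -0.82 to -0.14 in the other lines. Against the mean of the others 8 lay below, where 14.2% of all genes did. Mvk, mevalonate kinase, was at 68.6, 88.2, 85.4 and 107 CPM in mono-culture and at 30.6, 13.4, 18.3 and 30.5 CPM in coculture. All 4 coculture libraries lay below the mono-culture libraries, and replicates 2 and 3, both of sheet A, were the lowest. Mvk fell by 1.91 ± 0.25 on the log2 scale, 0.92 ± 0.26 further than the other lines (adjusted p = 0.00949). Ebp, a sterol isomerase, fell from 163 ± 27.2 to 56.5 ± 11.2 CPM (difference -0.83 ± 0.21, adjusted p = 0.00282, not called in sheet B). Insig1, a regulator of SREBP processing, fell from 590 ± 58.3 to 258 ± 46.5 CPM (difference -0.59 ± 0.19, adjusted p = 0.0217, not called in sheet A). The difference of Mvk was -1.49 in sheet A and -0.61, not called, in sheet B. The list's median response was -1.29 within sheet A and -0.36 within sheet B, and its median difference was -0.82 and 0.02. Of 15 fatty acid synthesis genes, 10 fell and none rose (median -0.41), among them Scd2, a desaturase, from 4906 ± 920 to 2411 ± 617 CPM and Elovl5, an elongase, from 537 ± 141 to 239 ± 66.3 CPM. Acss2, acetyl-CoA synthetase, fell from 61.5 to 11.7 CPM. Its difference from the others, -1.004, was -0.64 and lost its call without mono-culture replicate 4, which had the highest level, and was also lost without coculture replicate 2 or 3.

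**Figure D3:**
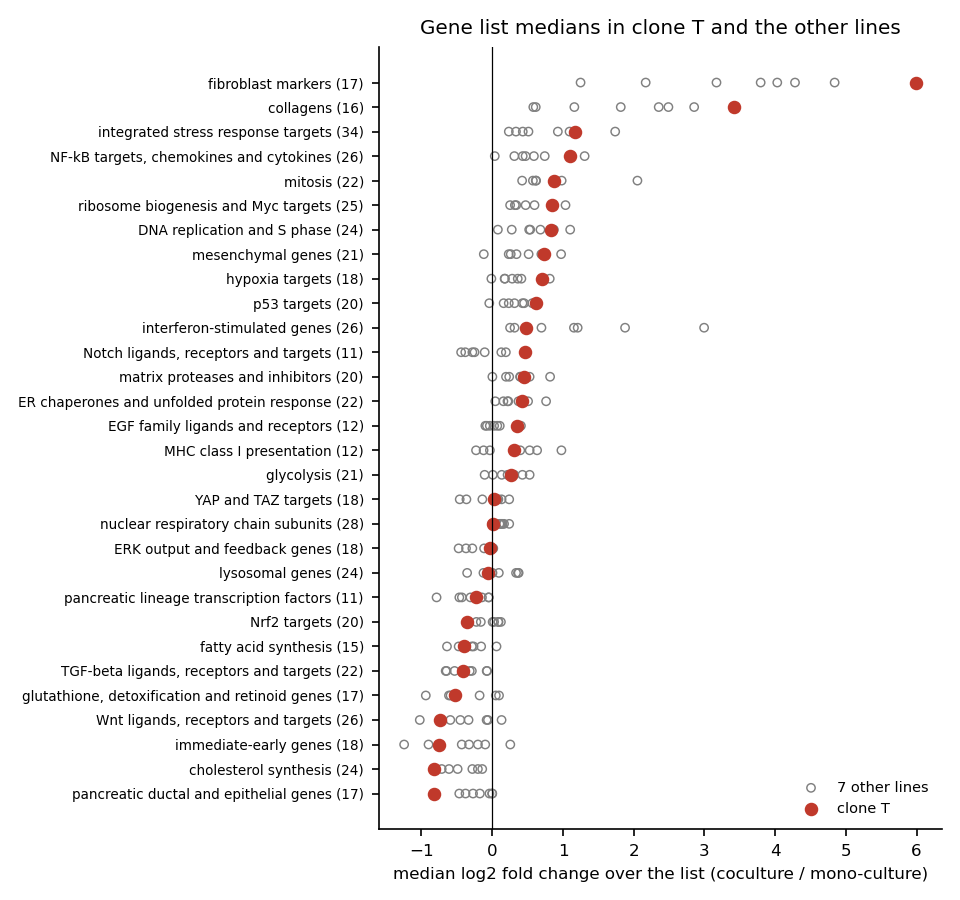
Median log2 response of each gene list with at least 10 genes tested, one row per list, with clone T as a filled point and the 7 other lines as open circles. Clone T lies above every other line for the fibroblast markers (6.00 against at most 4.84) and collagens (3.41 against at most 2.85) and below every other line for the epithelial genes (-0.83 against at least -0.47).

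The next comparison asked where clone T responded unlike the other lines. The clone T response minus the mean response of the 7 others was called for 3811 genes, 1808 higher (12.8% of those tested) and 2003 lower (14.2%), against 982 to 4839 when each other line was set against the rest in the same way. Within sheet A alone 2563 genes were called and within sheet B alone 1015. This test takes libraries as replicates, so the lines stand only for themselves. An exact permutation over lines, with 1 line against 7, cannot give a two-sided p below 0.125. Among the tested genes, 805 had a group at 0 in all 4 libraries, 239 of them clone T in mono-culture, and 93 of the 805 were called in the difference. The fitted response of a group at 0 depends on the prior count that edgeR adds, and so does a mean over lines that holds it. This touches Cntln, Calml4 and Plxdc2 among the genes with the lowest differences, since a mono-culture of another line was at 0 for each. Colec12, a scavenger receptor, was at 0, 0.107, 0 and 0.0586 CPM in mono-culture and at 24.6, 8.09, 13.4 and 17 CPM in coculture, a response of 8.25 ± 0.51 against a mean of 1.42 (difference 6.83 ± 0.62, adjusted p = 1.28e-11). Adamts2, a procollagen protease, had a difference of 7.17 ± 1.99, Col12a1 one of 5.26 ± 1.38, Mcam, an adhesion molecule, 4.73 ± 0.67, and Ddr2, a collagen receptor, 3.17 ± 0.76. In coculture their levels in clone T lay inside the range of the other lines, and in mono-culture they lay at or near its lower end. Adamts2 was at 0.0134 CPM in clone T mono-culture and 11.1 CPM in coculture, while the other lines ran from 0.0116 to 75.7 CPM and from 6.495 to 26.4 CPM. Its clone T mono-culture level came from replicate 2 alone and lay under the floor of 0.0439 CPM, so the size of its difference is uncertain. That difference was 5.74 in sheet A, 10.5 in sheet B and 8.67 without mono-culture replicate 2. Mcam went from 0.206 to 7.38 CPM in clone T, while the others ran from 0.466 to 22.02 CPM and from 1.94 to 11.1 CPM. Mxra7, Basp1, Cd248, Ogn and C1qtnf6 completed the set, with differences of 3.15 to 4.31, clone T mono-culture levels of 0.0427 to 0.158 CPM and coculture levels of 5.46 to 12.2 CPM. The summed fibroblast markers moved with these genes, from 129.5 CPM in mono-culture to 1002 CPM in coculture, and their part in the differences was not tested.

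Lower differences were of several kinds. Fbln5, Plxdc2 and Zfp503 fell in clone T while 6, 5 and 4 of the other lines were called higher, although the fall of each was not called in sheet B alone. Calml4 and Oas3 fell in clone T, with other lines called both ways. Cntln, which encodes centlein, and Thbs2, a thrombospondin, were already expressed in clone T mono-culture and rose far more elsewhere. Thbs2 was at 38.4 CPM in mono-culture and 87.9 CPM in coculture (response 1.19 ± 0.50), while the other lines ran from 0.127 to 2.67 CPM and from 12.6 to 31.4 CPM. The rise was not called in sheet A (0.60). This was a difference of -4.14 ± 0.62 (adjusted p = 4.38e-06). Cntln was at 3.91 CPM and 5.45 CPM, a response of 0.48 ± 0.44 that was not called, against a mean of 5.57 (difference -5.09 ± 0.68, adjusted p = 9.29e-07, but -2.68 and not called in sheet B). Vil1, the microvillus protein villin, fell from 7.79 ± 2.27 to 0.416 ± 0.192 CPM (difference -3.74 ± 0.57, adjusted p = 4.64e-06), Rasl11a had a difference of -3.93 ± 0.68 and Mt2 one of -3.88 ± 0.89. All 20 named genes kept the direction of their difference within each sheet, 17 of them called in sheet A and 15 in sheet B. They were chosen on all libraries, which include both sheets, so this is no independent support. Sheet A held both cultures of 6 other lines, and sheet B those of 4 (H, K, M and KPC1).

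The clone T response was taken to lie beyond all 7 other lines if a gene was called in clone T and if its response there also differed, by a test of the difference at adjusted p under 0.1 with the sign of the clone T response, from that of each of the 7 other lines. There were 77 such genes, 43 higher (0.304% of those tested) and 34 lower (0.241%). The same rule gave 7 to 183 genes in the other lines. These are genes that changed further in clone T and not genes that changed in no other line. Of the 77, 63 were called the same way in 1 or more other lines, 3 of them in all 7, and 14 in none. The number is sensitive to single libraries. It was 34 without coculture replicate 3, 38 without mono-culture replicate 3 and 150 without coculture replicate 1, and 27 of the 77 (15 higher, 12 lower) were found in each of the 8 fits that left out a clone T library. Within sheet A 30 of the 77 were found again and within sheet B 6, with Lgals2 and Slc27a4 in both. Leaving out clone E, the line nearest to clone T, raised the number to 275. Leaving out a line drops 1 of the 7 required differences from the same fit, so the number can only stay or rise.

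Col3a1, a chain of type III collagen, rose in all 7 other lines too, and its gap to the nearest of them, 1.75 on the log2 scale, was the widest among the named genes that rose. It was at 5.90, 6.18, 9.70 and 7.67 CPM in mono-culture and at 289, 144, 175 and 283 CPM in coculture, a response of 4.92 ± 0.47 against 2.17 to 3.17 in the other lines. Col3a1 in clone T was below the 20.2 to 74.2 CPM of the other lines in mono-culture and within their 182 to 481 CPM in coculture. Pcdh19, a protocadherin of cell adhesion, was at 5.61, 6.12, 5.17 and 7.203 CPM in mono-culture and at 58, 64.3, 64.4 and 52.5 CPM in coculture. The libraries of each culture lay close together, and the response of 3.31 ± 0.25 exceeded the -0.48 to 1.87 of the others (difference 2.58 ± 0.26, adjusted p = 1.69e-10). Gadd45a, a growth arrest gene of the DNA damage and stress responses, was at 71.8, 66.7, 62.6 and 53.1 CPM in mono-culture and at 248, 748, 447 and 328 CPM in coculture. Coculture replicate 2 was the highest, and the groups did not overlap. Gadd45a responded by 2.80 ± 0.31 against 0.01 to 1.59 elsewhere, 3.31 in sheet A and 2.14 in sheet B, and its difference was called in both. Pfkfb3, which makes the activator of phosphofructokinase, rose from 3.76 ± 1.20 to 18.1 ± 5.09 CPM, with a difference of 1.66 ± 0.32 that was 2.11 in sheet A and 0.88 (adjusted p = 0.363) in sheet B. Adamts6, a matrix protease, rose from 2.24 ± 0.681 to 9.19 ± 1.38 CPM and did not rise on average in the others (mean response 0.05). Gab2, an adaptor of receptor tyrosine kinases, rose 2.996-fold, Pitpnc1, a phosphatidylinositol transfer protein, 2.44-fold, Cnnm4, a magnesium transporter, 2.56-fold, Abtb2 4.94-fold and Aif1l, an actin-binding protein, 6.75-fold. Gadd45a and Aif1l were called higher in 6 other lines, Pfkfb3 in 5, Pcdh19, Gab2 and Abtb2 in 4, Adamts6 in 2, and Pitpnc1 and Cnnm4 in 1. Of these 10 genes, Col3a1, Pcdh19, Pfkfb3, Aif1l, Gab2 and Pitpnc1 were at a lower level in clone T than in any other line in mono-culture. Gadd45a and Cnnm4 met the rule in 5 of the 8 fits that left out a clone T library, and in neither sheet. Abtb2 and Pfkfb3 met it in 6 of these fits, and the rest of the 10 in all 8.

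Among the genes that fell beyond all other lines, Calml4, a calmodulin-like protein of the brush border, was at 7.83, 6.72, 9.57 and 6.73 CPM in mono-culture and at 0.587, 0.392, 0.185 and 0.727 CPM in coculture. Other lines were called both ways, and its response of -4.03 ± 0.43 compares with -1.84 to 4.58 in the other lines (difference -5.01 ± 0.68, adjusted p = 8.45e-07). Lgals2, galectin-2, fell from 47.3 ± 18.4 to 2.11 ± 1.28 CPM, while the other lines were at 1.53 to 21.6 CPM in mono-culture and 0.974 to 3.85 CPM in coculture. Galm, galactose mutarotase, fell 9.12-fold, Gpd1l, a glycerol-3-phosphate dehydrogenase-like enzyme, 8.84-fold, and Ffar4, a receptor of long-chain fatty acids, 5.82-fold. Slc27a4, a fatty acid transport protein, was named for its place in both sheets after its values were seen, and fell from 114 ± 13.5 to 28.3 ± 6.02 CPM (difference -1.59 ± 0.15, adjusted p = 1.28e-11). Rbp4, the plasma retinol carrier, was at 431, 445, 552 and 318 CPM in mono-culture and at 125, 64.3, 77.1 and 95.5 CPM in coculture, a response of -2.27 ± 0.24 against -1.04 to 0.89. Kazald1 fell by 2.33 on the log2 scale, and Phf11d by 1.54, which was not called in sheet B. Both met the rule in 2 of the 8 fits that left out a clone T library. Galm met it in 4 of these fits. Dram1, a lysosomal membrane protein, fell by 1.05 ± 0.31 with overlapping groups, and this rested on sheet A, where the response was -2.11, against 0.03 in sheet B. Dram1 met the rule in 6 of the 8 fits.

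**Figure D4:**
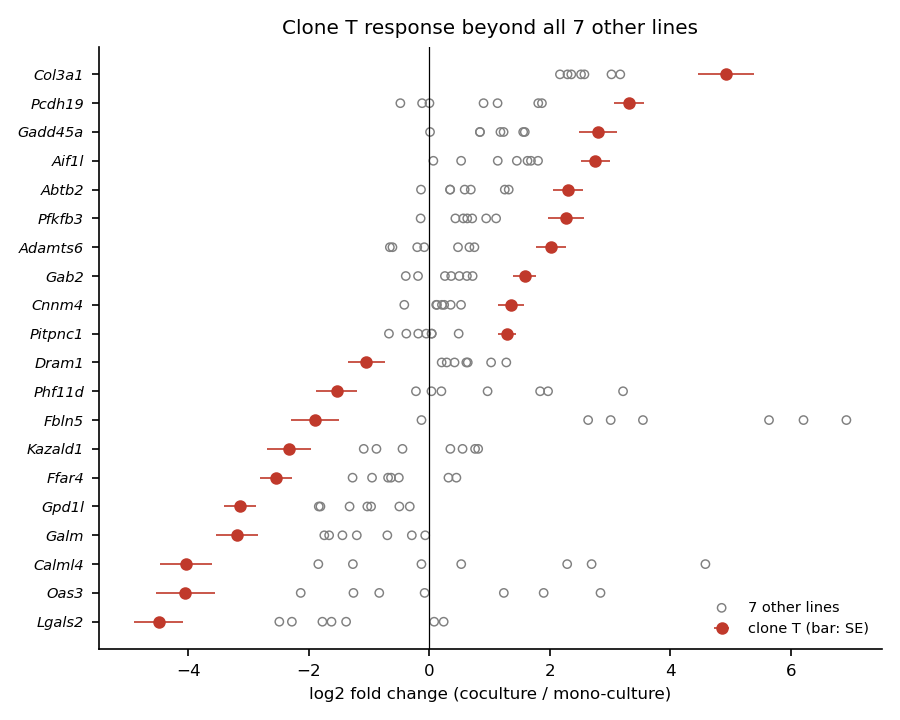
Log2 response (coculture minus mono-culture) of the 20 named genes whose clone T response lay beyond all 7 other lines, with clone T as a filled point with its SE and the 7 other lines as open circles. For Col3a1 clone T is at 4.92 and the others at 2.17 to 3.17, and for Fbln5 clone T is at -1.90 and the others at -0.13 to 6.92.

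Clone T moved against most lines in 22 genes, those called one way in clone T and the other way in at least 4 of the 7 other lines. Of these 10 were higher (0.0708%) and 12 lower (0.0849%) in clone T. The same rule gave 29 to 180 genes in the other lines, so clone T had the fewest of the 8. Within sheet A alone 4 genes met the rule, and within sheet B alone, with 4 other lines, none did in edgeR's test. Fbln5, an elastic fiber protein, was the clearest of them. It was at 52.7, 78.5, 62.8 and 107 CPM in mono-culture and at 20.4, 16.2, 15.9 and 28.5 CPM in coculture, a response of -1.90 ± 0.40, while 6 of the 7 others were called higher. Clone T had far more Fbln5 in mono-culture than the 0.0591 to 19.8 CPM of the others, and in coculture it was still above their 3.90 to 18.2 CPM. The difference of -5.87 ± 0.52 (adjusted p = 1.28e-11) was called in both sheets, while the response itself was -2.53 in sheet A and -1.20 (adjusted p = 0.135) in sheet B. Asrgl1, an L-asparaginase that cleaves asparagine, was at 16.1, 22.4, 21.5 and 27.6 CPM in mono-culture and at 8.28, 9.33, 8.19 and 11.6 CPM in coculture. It fell 2.34-fold in clone T (adjusted p = 3.78e-08) and was called higher in 6 other lines and lower in 1 (difference -1.67 ± 0.19, adjusted p = 6.74e-09). Zfp503, a zinc finger repressor, fell from 41.2 ± 8.73 to 13.3 ± 7.01 CPM, and 4 lines were called higher and 1 lower. Of the genes higher against the trend, Ltbp4, which binds latent TGF-beta, rose from 6.36 ± 1.47 to 12.9 ± 0.651 CPM, below the 20.3 to 136 and 17.03 to 79.2 CPM of the other lines, and Msn, which encodes moesin, from 832 ± 40.3 to 1294 ± 163 CPM. Thbs1 had overlapping groups, and its response of 0.89 ± 0.34 became -0.28 in sheet A and lost its call without mono-culture replicate 3 or coculture replicate 4 (0.48).

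Of 26 interferon-stimulated genes tested, 11 rose and 7 fell, where 31.5% and 30.7% of all genes did. Against the mean of the other lines 10 lay below and none above, where 14.2% and 12.8% of all genes did. Promoters of 3 members are shown, because Oas3 and Ifih1 fell in clone T, Ifit3 rose, and all hold the letters TTTC, then any 2 bases, then TTTC again, the core of the element known as the interferon-stimulated response element. Ifih1 and Ifit3 were chosen after their values were seen. Capitals mark the matches on either strand.
Oas3, chr5:120777610-120777909, minus strand: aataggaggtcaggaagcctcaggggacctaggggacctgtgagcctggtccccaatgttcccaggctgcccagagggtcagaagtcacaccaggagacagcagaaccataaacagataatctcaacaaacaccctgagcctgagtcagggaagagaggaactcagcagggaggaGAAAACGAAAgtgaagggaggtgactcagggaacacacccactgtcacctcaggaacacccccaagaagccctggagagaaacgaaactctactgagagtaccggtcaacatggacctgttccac
Ifih1, chr2:62646206-62646505, minus strand: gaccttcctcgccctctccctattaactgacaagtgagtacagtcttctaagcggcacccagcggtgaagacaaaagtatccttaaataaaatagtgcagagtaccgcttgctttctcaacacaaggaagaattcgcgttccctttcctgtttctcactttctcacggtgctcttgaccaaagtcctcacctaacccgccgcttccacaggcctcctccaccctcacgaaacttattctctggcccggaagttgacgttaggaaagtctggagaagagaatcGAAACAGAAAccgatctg
Ifit3, chr19:34583279-34583578, plus strand: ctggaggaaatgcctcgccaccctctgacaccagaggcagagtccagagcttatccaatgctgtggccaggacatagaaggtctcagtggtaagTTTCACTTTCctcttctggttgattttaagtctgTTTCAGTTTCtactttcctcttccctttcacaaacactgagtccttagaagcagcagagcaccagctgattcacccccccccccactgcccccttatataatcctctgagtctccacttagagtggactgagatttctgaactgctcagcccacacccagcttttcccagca
The motif begins at base 176 in Oas3, base 283 in Ifih1 and bases 95 and 129 in Ifit3. It was in 3.44% of the 32851 promoters and in 11 of the 20 genes of the list with a promoter in the table, and matches did not overlap one another. The same letters stand in promoters of genes that went opposite ways. Oas3, which makes the oligoadenylate that activates RNase L, was at 9.70, 9.35, 10.3 and 9.25 CPM in mono-culture and at 0.782, 0.718, 0.369 and 0.436 CPM in coculture. The drop was 16.5-fold (-4.05 ± 0.49, adjusted p = 1.35e-09), and the others ran from -2.13 to 2.84, with clones E (-2.13) and N (-1.26) also called lower. The response of Oas3 lay beyond all 7 other lines with all libraries, in 2 of the 8 fits that left out a clone T library, and in neither sheet. Its difference of -4.29 ± 0.67 (adjusted p = 8.73e-06) was -6.13 in sheet B and -3.33 in sheet A, where it was not called (adjusted p = 1). Xaf1, an antagonist of the apoptosis inhibitor XIAP, fell from 6.73 ± 2.03 to 1.77 ± 0.570 CPM (difference -2.42 ± 0.41, called in both sheets). Ifih1, the RNA sensor MDA5, fell from 11.03 ± 2.19 to 6.70 ± 1.53 CPM with overlapping groups (adjusted p = 0.0281). Of the members that rose, Isg15 went from 0.0746 to 1.97 CPM, Ifit1 from 0.1003 to 2.27 CPM and Ifit3 from 0.128 to 1.97 CPM. Bst2, or tetherin, started higher and rose from 28.6 ± 3.89 to 52.98 ± 11.05 CPM. All 7 other lines were called higher for Isg15, Ifit1 and Bst2.

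Of 12 genes of MHC class I presentation, 6 rose and 5 fell, where 31.5% and 30.7% of all genes did. Against the mean of the other lines 5 lay below and none above, where 14.2% and 12.8% of all genes did. Tap2, a subunit of the peptide transporter, fell from 9.68 ± 2.63 to 3.80 ± 0.808 CPM (difference -1.54 ± 0.35, adjusted p = 0.00131, -1.71 in sheet A and -0.93 and not called in sheet B). Irf1 fell from 48.8 ± 4.16 to 29.01 ± 4.46 CPM. The class I heavy chain H2-K1 rose 1.40-fold, with overlapping groups, and was not called in sheet A.

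Of 20 genes of oxidant defense under Nrf2, 5 rose and 11 fell (median -0.35, other lines -0.22 to 0.12), where 31.5% and 30.7% of all genes did. Against the mean of the others 10 lay below and 2 above, where 14.2% and 12.8% of all genes did. Gsta4, a transferase that clears lipid aldehydes, was at 410, 454, 562 and 449 CPM in mono-culture and at 96.0, 98.1, 86.4 and 88.6 CPM in coculture. The coculture libraries lay within a narrow band far below mono-culture, a fall of 5.08-fold. Gsta4 differed from the others by -1.42 ± 0.29 (adjusted p = 0.000382). Gclc, the limiting subunit of glutathione synthesis, was at 213, 190, 180 and 209 CPM in mono-culture and at 69.1, 73.1, 69.7 and 72.2 CPM in coculture, a response of -1.48 ± 0.16 and a difference of -0.98 ± 0.17 (adjusted p = 2.86e-05). Nqo1, a quinone reductase, was at 27.6, 24.6, 29.7 and 17.2 CPM in mono-culture and at 10.3, 10.2, 8.56 and 9.30 CPM in coculture, and no other line was called lower (difference -1.99 ± 0.32, adjusted p = 1.43e-05). Fth1, the ferritin heavy chain that stores iron, fell from 1833 ± 129 to 925 ± 175 CPM (difference -0.89 ± 0.15) and Gstm1 from 602 ± 60.4 to 212 ± 22.4 CPM (difference -0.87 ± 0.22). The differences of Gsta4, Gclc, Nqo1 and Fth1 were called in each sheet, and that of Gstm1 in sheet B but not in sheet A (-0.70, adjusted p = 0.177). Over the list, the median difference was -0.09 in sheet A and -0.60 in sheet B. The members above the others were Txnrd1, thioredoxin reductase, which rose from 171 ± 8.34 to 290 ± 36.6 CPM, and Hmox1, heme oxygenase, from 17.7 ± 1.58 to 53.3 ± 23.2 CPM. The difference of Txnrd1 (0.44) was not called in sheet B (0.29, adjusted p = 0.579). The difference of Hmox1 (0.78) lost its call without coculture replicate 2 (0.49) or mono-culture replicates 2 or 4. Of 17 other genes of glutathione, detoxification and retinoid metabolism, 1 rose and 6 fell, where 31.5% and 30.7% of all genes did. Of these 17, 5 lay below the others, as 14.2% of all genes did.

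**Figure D5:**
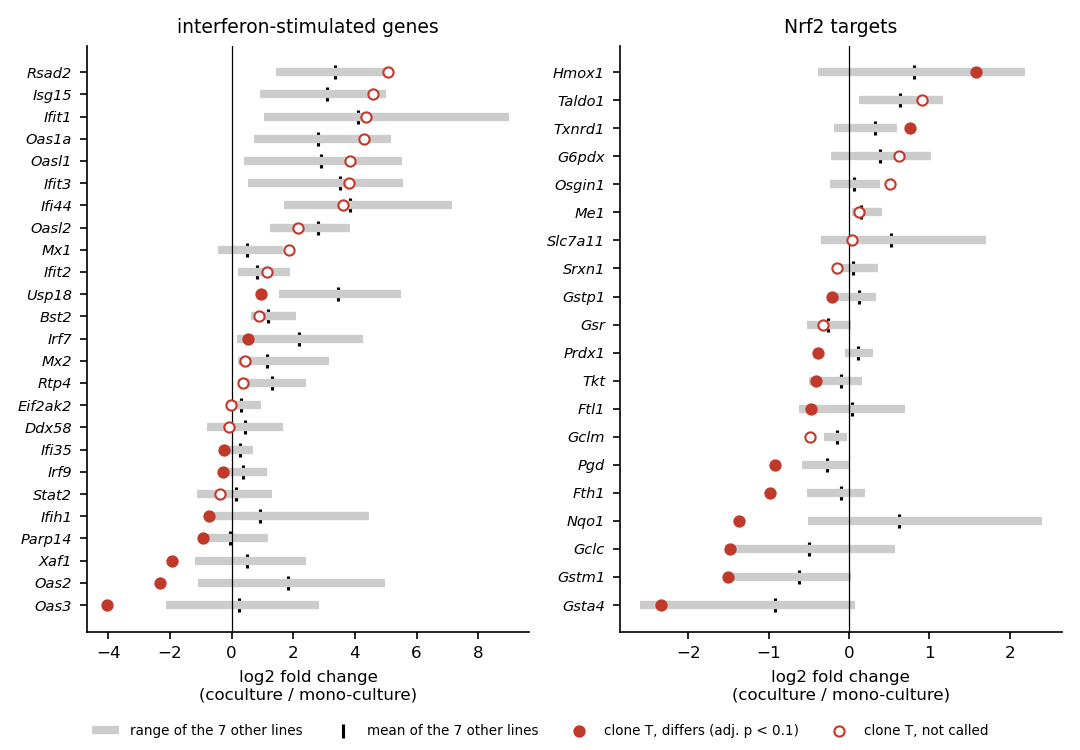
Log2 clone T response (points) of the reported interferon-stimulated genes and Nrf2 targets, with a grey bar from the lowest to the highest response of the 7 other lines and a tick at their mean, and points filled where the difference from that mean was called. Oas3 at -4.05 and Nqo1 at -1.37 lie below the bar of the other lines.

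Of 12 ligand and receptor genes of the EGF family, 4 rose and 3 fell, close to the 31.5% and 30.7% of all genes. Against the mean of the other lines 3 lay above and 3 below, where 12.8% and 14.2% of all genes did. Among ligands, Tgfa rose from 31.9 ± 3.50 to 56.9 ± 7.26 CPM (difference 0.64 ± 0.18, adjusted p = 0.00923, not called in either sheet alone at 0.66 and 0.80). Hbegf rose from 61.7 ± 7.14 to 162 ± 76.1 CPM and Nrg1 from 2.60 ± 0.854 to 10.5 ± 2.28 CPM. The excess of Hbegf over the others (0.95) lost its call in sheet B and without coculture replicate 2 (0.61), and that of Nrg1 (0.75) in either sheet and without mono-culture replicate 3 (0.57). Among receptors, Egfr was at 129, 161, 145 and 193 CPM in mono-culture and at 86.0, 49.4, 51.3 and 66.3 CPM in coculture, a fall of 2.49-fold (difference -0.87 ± 0.22, adjusted p = 0.00378, -1.34 in sheet A and -0.47, not called, in sheet B). Erbb2 fell from 88.2 ± 9.71 to 39.1 ± 4.98 CPM (difference -0.70 ± 0.14, not called in sheet B at -0.57) and Erbb3 from 15.2 ± 1.57 to 6.37 ± 1.42 CPM (difference -0.94 ± 0.26, called in each sheet).

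Of 22 genes of TGF-beta signaling, 6 rose and 13 fell, where 31.5% and 30.7% of all genes did, and 5 lay above and 5 below the others, where 12.8% and 14.2% did. Inhba, the subunit of activin A, was at 3.62, 3.12, 2.97 and 2.46 CPM in mono-culture and at 34.6, 31.7, 45.8 and 23.2 CPM in coculture. This 11.1-fold rise (3.47 ± 0.40, adjusted p = 2.86e-10) compares with -0.47 to 1.85 in the other lines, and the difference of 2.66 ± 0.42 was 2.54 in sheet A and 3.13 in sheet B, both called. Id1 and Id3, inhibitors of helix-loop-helix factors that BMP signals induce, fell from 249 ± 22.7 to 49.2 ± 16.6 CPM and from 177 ± 29.5 to 26.8 ± 15.9 CPM, and were called lower in all 7 other lines too, with differences of -1.15 ± 0.28 and -1.26 ± 0.39, the latter not called in sheet B. Of 11 Notch genes, 5 rose and 2 fell, and 3 lay above the others. Jag1, a Notch ligand, was at 134, 121, 133 and 96.9 CPM in mono-culture and at 254, 264, 287 and 181 CPM in coculture, and no other line was called either way (difference 1.13 ± 0.26, adjusted p = 0.00118, called in each sheet). Of 26 Wnt genes, 6 rose and 12 fell, and 2 lay above and 5 below the others. Wnt4 fell from 157 ± 20.4 to 7.37 ± 4.94 CPM and was called lower in all 7 other lines. Tcf7, a transcription factor of the pathway, fell from 47.9 ± 2.69 to 18.7 ± 6.71 CPM (difference -1.17 ± 0.23, adjusted p = 0.00028, not called in sheet B at -0.67). Lgr4, an R-spondin receptor, fell from 76.4 ± 18.5 to 18.6 ± 3.44 CPM.

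More epithelial genes fell than rose and more mesenchymal genes rose than fell, and the summed fibroblast markers moved beside them. For comparison, 31.5% of all genes rose and 30.7% fell, and 12.8% lay above and 14.2% below the mean of the others. Of 17 epithelial genes tested, 3 rose and 9 fell (median -0.83, other lines -0.47 to 0.00), and 5 lay below and 1 above the mean of the others. Krt19, the ductal keratin, was at 884, 894, 1180 and 741 CPM in mono-culture and at 405, 239, 272 and 381 CPM in coculture (difference -0.92 ± 0.25, adjusted p = 0.00564, -1.12 in sheet A and -0.62, not called, in sheet B). Grhl2, a factor that keeps epithelial identity, fell from 6.60 ± 0.599 to 0.712 ± 0.402 CPM, Elf3 from 10.9 ± 1.24 to 3.59 ± 0.927 CPM and Cdh1, E-cadherin, from 37.8 ± 4.73 to 24.7 ± 3.40 CPM, the last not called in sheet B. The 3 that rose were Sox9, Pkp3 and Spint1. Sox9 was at 154.1 to 253.6 CPM in mono-culture and at 247.6 to 390.8 CPM in coculture. Its groups overlapped, and its rise (0.67) was not called in sheet B. Pkp3 and Spint1 were at 2.55 CPM or less. Krt18 (1137 to 1712 CPM in mono-culture, 1248 to 1550 CPM in coculture) and Msln overlapped between cultures. Of 21 mesenchymal genes, 15 rose and 2 fell (median 0.73, other lines -0.12 to 0.97), and 9 lay above and 1 below the others. Tnc, tenascin C, was at 2.04, 2.63, 1.29 and 3.81 CPM in mono-culture and at 43.4, 34.8, 34.1 and 47.7 CPM in coculture (difference 2.45 ± 0.53, adjusted p = 0.000777, called in each sheet). Itga5, the fibronectin receptor subunit, rose from 45.7 ± 1.89 to 102 ± 3.48 CPM, and Cdh2, N-cadherin, from 64.9 ± 0.774 to 97.6 ± 20.9 CPM. Tgfbi and S100a4 were the members that fell. Of 20 matrix proteases and inhibitors, 10 rose and 1 fell, and 6 lay above and 2 below the others. Of 11 pancreatic lineage factors, 3 rose and 5 fell. Besides the fall of Pdx1, Gata6 rose from 0.0927 ± 0.114 to 2.06 ± 0.806 CPM, below the 2.36 to 12.4 CPM of the other lines in coculture.

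Of 26 NF-kB targets, chemokines and cytokines, 15 rose and 4 fell, where 31.5% and 30.7% of all genes did. Against the others 3 lay above and 2 below, where 12.8% and 14.2% of all genes did. Ccl2, a monocyte chemokine, was at 29.4, 40.2, 22.8 and 34.1 CPM in mono-culture and at 217, 147, 224 and 133 CPM in coculture (difference 1.41 ± 0.30, adjusted p = 0.000581, called in each sheet). Cxcl12 was at 82.3 ± 33.4 and 70.0 ± 24.4 CPM, a response of -0.23 ± 0.32 that was not called. The mean response of the other lines was 2.72, and the difference of -2.95 ± 0.47 was -4.49 in sheet A and -0.02 in sheet B. Another line was at 0 in mono-culture, and in sheet B clones E, N and V, without libraries of both cultures, were not in the fit. Of 18 immediate-early genes, 10 fell and 1, Atf3, rose, where 30.7% and 31.5% of all genes did, and 5 lay below the others (14.2% of all genes). Zfp36, which destabilizes cytokine mRNA, was at 264, 202, 286 and 291 CPM in mono-culture and at 45.8, 34.7, 27.9 and 46.3 CPM in coculture (difference -1.58 ± 0.46, adjusted p = 0.0113). Klf2 fell from 51.4 ± 9.03 to 12.3 ± 4.27 CPM and Egr3 from 61.9 ± 16.3 to 16.4 ± 6.42 CPM. Of 18 ERK output and feedback genes, 2 rose and 5 fell, with 3 below the others, and of 18 YAP and TAZ targets, 5 rose and 3 fell.

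In glycolysis, 8 of 21 genes rose and 1 fell, where 31.5% and 30.7% of all genes did. Hk2 and Pfkfb3 lay above the mean of the others, as 12.8% of all genes did. Hk2, hexokinase 2, was at 73.3, 64.3, 72.0 and 48.7 CPM in mono-culture and at 194, 227, 218 and 199 CPM in coculture, a 3.24-fold rise (difference 1.08 ± 0.22, adjusted p = 0.000295, 1.29 in sheet A and 0.90, not called, in sheet B). The list as a whole had a median of -0.13 within sheet A and 0.65 within sheet B. Of 18 hypoxia targets, 9 rose and none fell, with 2 above the others. Of 20 p53 targets, 14 rose and 4 fell, and 4 lay above and 4 below the others. Plk2, a stress-induced polo-like kinase, was at 28.1, 28.7, 22.9 and 39.8 CPM in mono-culture and at 113, 323, 222 and 204 CPM in coculture (difference 1.87 ± 0.36, adjusted p = 0.000179, called in each sheet). Aen, an apoptosis nuclease, rose from 7.06 ± 0.922 to 23.6 ± 6.30 CPM. Of 22 ER chaperone and unfolded protein response genes, 14 rose and 4 fell, with 1 above and 3 below the others. Of 28 nuclear respiratory chain subunits, 6 rose and 6 fell, smaller shares than the 31.5% and 30.7% of all genes, with 1 above and 5 below the others, where 12.8% and 14.2% of all genes were. Ndufa1 of complex I fell from 17.6 ± 3.53 to 8.11 ± 1.75 CPM (difference -0.87 ± 0.18, adjusted p = 0.000299) and Uqcrc2 of complex III from 78.4 ± 8.81 to 39.8 ± 6.81 CPM (difference -0.73 ± 0.18, adjusted p = 0.00207). Their coculture levels in clone T were under the lowest of the other lines, 11.3 CPM for Ndufa1 and 44.7 CPM for Uqcrc2. Of 24 lysosomal genes, 6 rose and 7 fell, where 31.5% and 30.7% of all genes did. Against the others 6 lay below and none above, where 14.2% and 12.8% of all genes did. Of 3 endothelial markers tested, 1 rose and 1 fell, and the 1 immune marker tested, Cd68, rose.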

How the data were processed

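RNA from mouse pancreatic tumor lines was sequenced as polyA-selected, strand-specific, paired-end libraries. The authors deposited a table of raw counts per gene for all 64 libraries, made with featureCounts on mm10 as their processing notes name them. The aligner, the annotation, the strand setting and the tool versions were not given in the sources used here. The authors also deposited a table of RPKM values of the same libraries, which was not used here.

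Counts were fitted with edgeR 4.0.16 in R 4.3.3, with TMM factors, 16 group means, and filterByExpr over those groups, and tested by quasi-likelihood at an adjusted p under 0.1. CPM are counts scaled to a common TMM-adjusted library total (CPM as edgeR gives them). Clone T mono-culture and coculture libraries held 15755787 to 18781361 and 13716836 to 16324246 counts. A count of 3 over a group of 4, used as the floor, equals 0.0439 CPM in mono-culture and 0.0494 CPM in coculture, and the floor and the counting interval cover counting error only. Replicates of clone T differed by more than sampling noise (chi-square per gene 9.48 to 55.0), so each was counted as 1 sample. Every sample column was assigned to a sample, and there were no rows without a gene.

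Named genes were those with the largest changes at a mean of at least 5 CPM in either clone T culture (8 in each direction for the response, 10 for the difference and for genes beyond all other lines, 5 for opposed genes), up to 3 in each direction of each of 32 gene lists by p, and 6 genes that the study discusses. Results of a few genes that the rules gave are not reported here. Clone T, the lists and the rules were chosen with earlier results of these data known. The fits were tested on simulated data. Alternatives were other scalings, DESeq2 1.42.0, no filter, a replicate block, the sheet as a term or alone, a stricter threshold, and leaving out each clone T library or other line. Same-numbered clone T libraries of the 2 cultures correlated at -0.01 to 0.48 after removing group means, over 0.1 in 1 of 4 pairs. Over all lines 22 of 32 pairs were over 0.1 (all 4 pairs in clones M, N and V). No label says that same-numbered libraries are pairs, and the main fit did not pair them. Any effect shared by a number therefore stays in its spread, and counts with the number as a block are given in the last section. Promoters came from RefSeq (GRCm38.p6), and motifs were searched on both strands.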

Additional observations from a re-analysis of the deposited data

Results flagged for a closer look

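In 9 of 126 groups of 4 clone T libraries (7.14%) one library stood apart by Dixon's test, where chance gives about 1 in 20. At levels near 0 these were Col5a2 (0.117 CPM) and Mrc2 (0.0586 CPM) in mono-culture replicate 4 and Adamts2 (0.0537 CPM) in mono-culture replicate 2, with the other 3 libraries at 0, and Ogn in mono-culture replicate 3, at 0 with the others at 0.0537 to 0.0586 CPM. Shmt2 was at 119.5 CPM in mono-culture replicate 4 and at 255.4 to 278.5 CPM in the others. In coculture replicate 4, Rasl11a was at 8.65 CPM (others 0.718 to 1.96), Plxdc2 at 3.56 CPM (others 1.35 to 1.501) and Gab2 at 13.4 CPM (others 20.5 to 21.4). Gsta1 was at 2.22 CPM in coculture replicate 2 (others 0.369 to 0.587).

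The clone T response differed from the mean response of the other 7 lines in 3811 genes by edgeR's test of that difference. Of the named genes, the differences on the log2 scale were 7.17 for Adamts2, 6.83 for Colec12, 5.26 for Col12a1, 4.73 for Mcam, 4.31 for Mxra7, 3.71 for Basp1, 3.58 for Cd248, 3.47 for Ogn, 3.17 for Ddr2 and 3.15 for C1qtnf6. They were -5.87 for Fbln5, -5.09 for Cntln, -5.01 for Calml4, -4.63 for Plxdc2, -4.29 for Oas3, -4.20 for Zfp503, -4.14 for Thbs2, -3.93 for Rasl11a, -3.88 for Mt2 and -3.74 for Vil1. Among genes beyond all other lines, the differences were 2.58 for Pcdh19, 2.34 for Col3a1, 1.98 for Adamts6, 1.76 for Gadd45a, 1.67 for Abtb2, 1.66 for Pfkfb3, 1.57 for Aif1l, 1.39 for Pitpnc1, 1.31 for Gab2 and 1.19 for Cnnm4. In the other direction they were -3.17 for Lgals2, -2.68 for Phf11d, -2.34 for Kazald1, -2.18 for Galm, -2.08 for Ffar4, -2.03 for Gpd1l and -1.69 for Dram1. Among opposed genes, they were 1.35 for Ltbp4, 1.28 for Thbs1, 0.97 for Pmepa1, 0.88 for Sbk1, 0.63 for Msn and -1.67 for Asrgl1.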

How the results depend on the processing

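The count of genes called in the clone T response ran from 8151 to 8833 when a clone T library was left out, was 8959 with DESeq2, 8789 with RLE scaling and 8839 with the sheet as a term, and was 5047 (2879 higher, 2168 lower) within sheet B. The difference from the other lines was called for 2687 to 4500 genes when a library or a line was left out, for 1130 genes higher within sheet A, and for 1015 (580 higher, 435 lower) within sheet B. Genes beyond all other lines ran from 34 without coculture replicate 3 to 150 without coculture replicate 1 (20 to 67 higher, 14 to 83 lower). The number was 275 (128 higher, 147 lower) without clone E, where 1 required difference fewer can only keep or raise it. They numbered 42 (26 higher, 16 lower) with no filter, 31 (17 and 14) at adjusted p under 0.05, 21 higher within sheet A, and 28 (21 and 7) within sheet B. Opposed genes that were higher in clone T ran from 6 to 17 with a library left out, and were 6 with no filter. At adjusted p under 0.05 opposed genes numbered 14 (4 higher). Within sheet A they numbered 4 (0 higher, 4 lower), and within sheet B 0 (0 higher, 0 lower), with edgeR in fewer lines and libraries. With the replicate number as a block, 183 genes (94 higher, 89 lower) lay beyond all other lines and 44 (19 higher, 25 lower) were opposed, and 2 of 4 clone T libraries correlated best with their own number. Single genes turned direction only within a sheet. The response of Thbs1 was -0.28 and its difference -0.12 in sheet A, and in sheet B the response of Dram1 was 0.0297, the response and difference of Wnt9a were -0.58 and -0.60, and the difference of Adamts1 was 0.0831. Apart from the smaller number of libraries and lines in a sheet, the cause was not tested. Without 1189 genes under 1 CPM in every mono-culture, a choice made after seeing the data, 8276 genes were called in the response and 3727 in the difference, and 77 lay beyond all other lines. The 1189 genes were taken out of the finished results with no new fit, so these counts are no test of the fit. Of 3733 gene responses over all settings 66 lost their call, and of 3703 gene differences 283 did. Libraries of 13716836 to 18781361 counts leave genes under 0.0494 CPM in coculture at under 3 counts a group, so their folds are bounds.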
